A study of Mus musculus with 21 samples.

Results

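Genes of the Z-disc, the protein plate that joins neighbouring sarcomeres of striated muscle, were followed in embryonic mouse hearts with and without an intact Chd4 gene. The set was chosen by symbol, with earlier results of these data known. It holds 10 of the 24509 genes in each expression table, namely Actn2, Ldb3, Myot, Myoz2, Nebl, Tcap, Csrp3, Smpx, Xirp1 and Des. CHD4 is an ATP-dependent chromatin remodeller and a core subunit of the NuRD complex. Messenger RNA was sequenced from hearts of CD1 strain embryos at embryonic day 9.5 (E9.5), with 5 control libraries of genotype Chd4(flox/flox) and 5 of genotype Chd4(Δflox/Δflox), and at E10.5, with 3 libraries of each. The control groups, called flox here, carry the same floxed alleles in unrecombined form, and the recombined groups are called null. The recombinase line and the cells in which it acts are not named in the labels, and neither are the heart cells that had lost Chd4. CHD4 binding was mapped by chromatin immunoprecipitation and sequencing in wild-type CD1 hearts at E10.0, in 3 libraries that the series counts as 2 biological and 3 technical replicates.

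Thin actin filaments of opposite polarity are anchored in the Z-disc by alpha-actinin, and titin spans from there toward the middle of the sarcomere. Around this core sit adaptor proteins that bind alpha-actinin, filamin and calcineurin, a telethonin cap on the titin ends, and desmin filaments that tie the discs of neighbouring myofibrils to each other. In the embryonic heart Z-discs form as the first myofibrils assemble, and inherited changes in many of these proteins cause cardiomyopathy or skeletal myopathy in humans.

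Depth was 17.1 to 23.5 M reads in the E9.5 libraries, and the E10.5 libraries had 17.3 to 18.9 M reads. Levels are in RPKM, reads scaled to gene length in kilobases and to the read total of the library, which allows levels of different genes to be compared per length. Chd4 itself was at 92.4 ± 1.33 RPKM (SD, n = 5) in the E9.5 flox hearts and 45.7 ± 3.08 in the null hearts, with no overlap, and it fell by 1.01 on the log2 scale (SE 0.0524, limma adjusted p = 1.69e-06). At E10.5 its highest null library was also under its lowest flox library, with a log2 difference of -0.55 (SE 0.161, limma adjusted p = 0.116). The identity of the tissue was checked with 12 cardiomyocyte genes that hold no Z-disc gene of the set, such as Tnnt2 and Myh6, and none of them was at 0 in any library. These 12 genes took 3.49 ± 0.212% of the reads of E9.5 flox hearts and 2.84 ± 0.252% of those of E9.5 null hearts, and their mean log2 level ran from 9.35 to 9.53 in flox and from 9.05 to 9.28 in null libraries. Over the same libraries, 12 erythroid genes took 1.27 ± 0.479% of reads in flox and 3.50 ± 1.43% in null hearts, their mean log2 levels ran from 5.46 to 6.67 against 6.68 to 7.80, and 11 of the 12 rose. At E10.5 the cardiomyocyte share was 2.23 ± 0.570% in flox and 2.41 ± 0.242% in null hearts, and the erythroid share 2.89 ± 1.94% and 5.90 ± 3.57% (n = 3 each). One E10.5 library, flox replicate 2, stood apart with the lowest cardiomyocyte share of all, 1.57%, and an erythroid share of 5.13%. Null replicate 3 had the highest erythroid share, 9.99%. The summed level of 6 foregut and liver genes was 1413 RPKM in null replicate 2 and 1003 RPKM in null replicate 3, against 24.0 RPKM in null replicate 1 and 5.86, 187 and 6.57 RPKM in the flox libraries. The part of these libraries' makeup in the E10.5 differences was not tested, and values without single libraries are given beside the members they move. In bulk tissue, fewer cardiomyocytes and less RNA per cardiomyocyte cannot be told apart.

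The promoters of members where CHD4 binding was found at a start site are shown first, since they are the stretches on which the binding data bear. RefSeq promoter windows (GRCm38.p6, the assembly that mm10 names) matched 7 of the 10 genes by symbol, and 4 of those 7, Actn2, Csrp3, Des and Ldb3, had a CHD4 peak present in all 3 libraries over a window. Such a peak lay over a window for 52.4% of expressed genes with an entry, so 4 of 7 is near the background. Each sequence is the 250 bases before an annotated start, 5′ to 3′ on the gene's strand, and capitals mark a CArG box or a MEF2 motif, the sequences known to be read by serum response factor and by MEF2 factors in muscle.
Actn2, chr13:12340733-12340982, minus strand: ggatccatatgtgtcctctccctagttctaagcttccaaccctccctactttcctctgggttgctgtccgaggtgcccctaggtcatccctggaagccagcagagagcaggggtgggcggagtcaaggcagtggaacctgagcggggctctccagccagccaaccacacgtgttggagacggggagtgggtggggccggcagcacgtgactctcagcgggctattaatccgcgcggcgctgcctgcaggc
Csrp3, chr7:48848052-48848301, minus strand: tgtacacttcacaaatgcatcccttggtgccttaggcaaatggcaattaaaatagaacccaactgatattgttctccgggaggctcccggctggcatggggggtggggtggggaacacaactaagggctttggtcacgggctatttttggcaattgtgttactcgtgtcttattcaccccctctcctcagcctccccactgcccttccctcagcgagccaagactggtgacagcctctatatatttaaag
Des, chr1:75360042-75360291, plus strand: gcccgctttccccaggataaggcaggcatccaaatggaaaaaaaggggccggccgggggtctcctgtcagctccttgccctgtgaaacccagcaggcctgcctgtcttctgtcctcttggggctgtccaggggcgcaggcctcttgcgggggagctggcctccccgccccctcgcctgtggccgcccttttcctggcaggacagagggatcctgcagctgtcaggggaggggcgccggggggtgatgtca
Ldb3, chr14:34588682-34588931, minus strand: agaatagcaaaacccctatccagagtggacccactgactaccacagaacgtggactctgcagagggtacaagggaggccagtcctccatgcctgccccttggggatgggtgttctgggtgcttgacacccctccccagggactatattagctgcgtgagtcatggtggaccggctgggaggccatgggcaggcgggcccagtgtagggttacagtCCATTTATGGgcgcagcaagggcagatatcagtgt
Myoz2 is printed for comparison, as a member with no shared CHD4 peak at its start or elsewhere in the gene.
Myoz2, chr3:123034988-123035237, minus strand: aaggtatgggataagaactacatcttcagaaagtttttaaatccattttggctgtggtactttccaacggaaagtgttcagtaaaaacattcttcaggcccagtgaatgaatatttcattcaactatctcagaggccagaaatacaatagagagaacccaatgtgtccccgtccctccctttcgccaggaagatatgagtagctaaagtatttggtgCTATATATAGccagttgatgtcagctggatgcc

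Both strands of these windows were searched for the CArG box, the MEF2 motif, the motif of GATA factors GATAA, the NK homeodomain motif AAGTG, the TEAD motif CATTCC, the E-box CANNTG and the TATA box TATAAA. In Ldb3 a CArG box ended 25 bases before this start, and such a box was present in 1.23% of 12914 windows of the same length. The Ldb3 window lies inside the annotated gene, at an internal start. In Myoz2 a MEF2 motif ended 23 bases before the start, against 1.66% of all windows. The E-box occurred 3 times in Actn2, 4 times in Csrp3 and 2 times each in Des and Myoz2, and in 57.4% of all windows. GATAA was in the Des and Myoz2 windows and in 14.9% of all windows, and AAGTG was in the Csrp3 and Myoz2 windows and in 36.6%. The TEAD motif and the TATA box, which occur in 10.8% and 6.43% of all windows, matched none of the 5 printed stretches. A match describes the letters only.

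At E9.5, 6 of the 10 Z-disc genes fell in null hearts, 1 rose and 3 did not pass the test. Tcap, Xirp1, Actn2, Smpx, Csrp3 and Nebl fell, by 0.92 to 0.27 on the log2 scale, and Myot rose from a trace level to 3.66 RPKM. Des, Ldb3 and Myoz2 did not pass. The test was limma on log2(RPKM + 0.5) with Benjamini-Hochberg adjustment over 13643 expressed genes, of which 17.2% were called at an adjusted p under 0.05, 10.3% as lower and 6.87% as higher. Tcap, Csrp3, Xirp1 and Actn2 had all 5 null libraries below all 5 flox libraries, as did 8.57% of all genes. Myot had them above, as did 5.5%, and it passed the filter through its null level alone. The median log2 change was -0.38 over the 10 genes and -0.04 over all genes tested. Since the members were chosen with earlier results known, these counts and medians only describe them. With the mean erythroid level as a term in the fit, 0.535% of all genes (73 of 13643) were called. Of the members, Myot alone was called. Tcap went from -0.92 to -0.74 and Csrp3 from -0.48 to -0.43. Xirp1 went from -0.61 to -0.29, Actn2 from -0.51 to -0.28, Smpx from -0.51 to -0.21 and Nebl from -0.27 to -0.11. The mean log2 erythroid level was separate between the genotypes by a narrow margin, at most 6.67 in flox and at least 6.68 in null libraries. The summed RPKM of these genes overlapped, with flox replicate 3 at 28020.7 and null replicate 1 at 27808.5. The term and genotype are still hard to separate. The SE went from 0.128 to 0.226 for Tcap and from 0.0685 to 0.122 for Csrp3. How far the erythroid and cardiomyocyte shares account for the 6 lower genes was not tested.

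**Figure D1:**
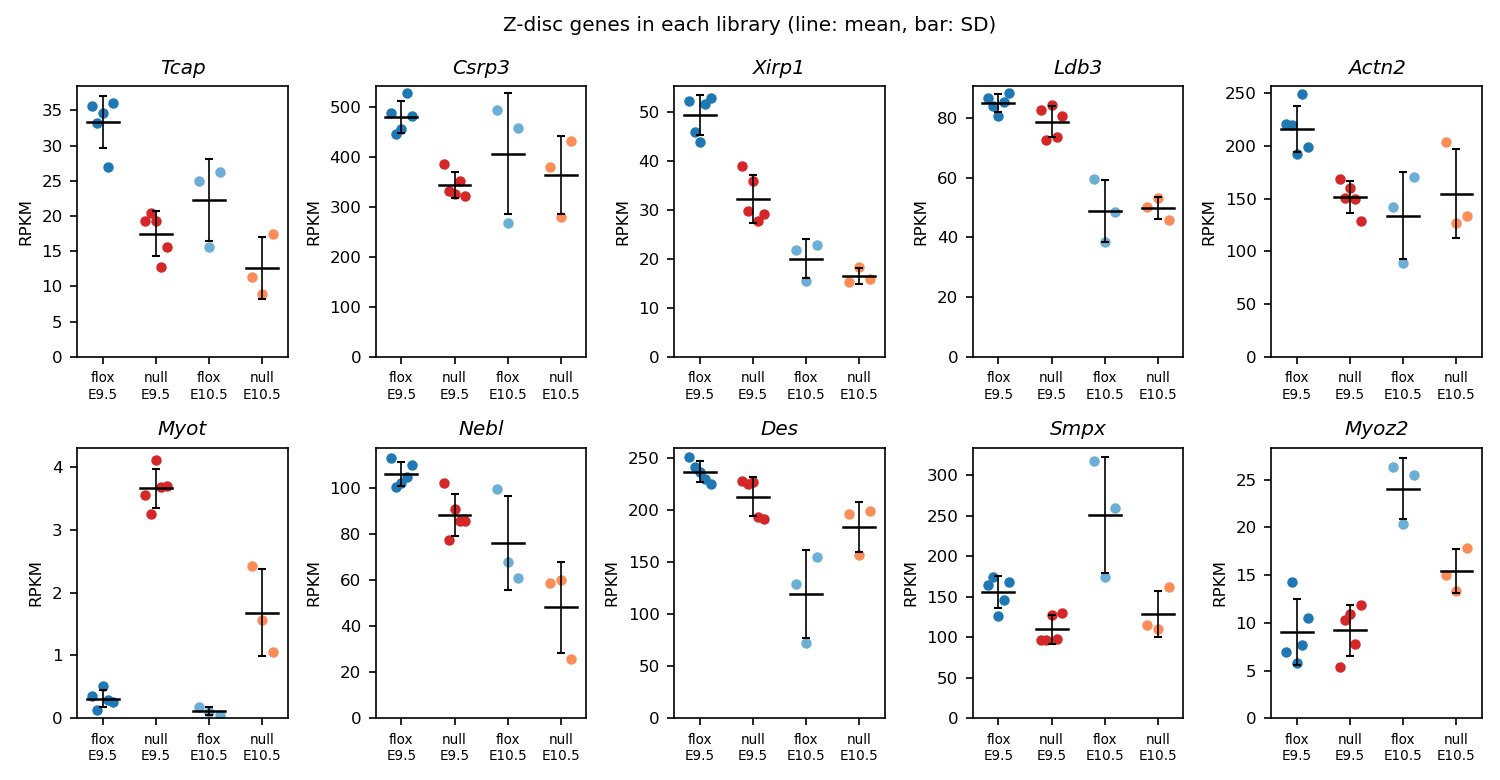
Level in RPKM (vertical axis, from 0) of each Z-disc gene in every library, by genotype and stage, with the group mean as a line and the SD as a bar. Tcap, Csrp3, Xirp1 and Actn2 show no overlap between flox and null libraries at E9.5, and Myot is near 0 in flox and above 1 RPKM in null libraries at both stages.

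Actn2 encodes sarcomeric alpha-actinin, the crosslinker of thin filaments that defines the Z-disc. Its level in the 5 E9.5 flox libraries was 221, 220, 192, 249 and 199 RPKM, and in the 5 null libraries 169, 150, 160, 149 and 129 RPKM. The highest null library lay below the lowest flox library. The log2 change was -0.51 (SE 0.0869, limma adjusted p = 0.00328). At E10.5 Actn2 was at 142, 88.9 and 170 RPKM in flox and 203, 127 and 134 RPKM in null hearts, which overlapped, with a log2 difference of 0.23 (SE 0.277, limma adjusted p = 0.651). Without flox replicate 2 that difference was -0.042, so its sign rested on 1 library.

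Ldb3 encodes ZASP, also called Cypher, a PDZ and LIM domain protein that binds alpha-actinin. It showed the tightest spread of the set, at 86.8, 84.2, 80.6, 85.4 and 88.3 RPKM in E9.5 flox and 82.8, 72.8, 84.3, 73.8 and 80.7 RPKM in E9.5 null hearts. These ranges overlapped. The log2 difference was -0.11 with a 95% interval from -0.23 to 0.01 (limma adjusted p = 0.189). At E10.5 the levels were 59.5, 38.6 and 48.5 RPKM in flox and 50.4, 53.4 and 45.9 RPKM in null hearts, and the log2 difference was 0.05, with an interval from -0.36 to 0.46 (limma adjusted p = 0.891) that turned to -0.11 without flox replicate 2. Neither stage gave a call for Ldb3, and the E10.5 interval includes changes as large as that of Xirp1 at that stage.

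Myot encodes myotilin, a protein with immunoglobulin domains that binds alpha-actinin, filamin C and F-actin and is known mainly from skeletal muscle. In E9.5 flox hearts Myot was at 0.360, 0.136, 0.510, 0.291 and 0.262 RPKM, which rests on 7 to 22 reads per library. The null hearts held 3.56, 3.26, 4.11, 3.68 and 3.70 RPKM, from 122 to 181 reads per library. Every null library was above every flox library. Myot changed by 2.37 on the log2(RPKM + 0.5) scale (SE 0.125, limma adjusted p = 1.69e-06). That scale understates a gene this low, and the summed reads, 71 in flox and 770 in null libraries, gave a 12-fold higher null level per depth (95% exact interval 9.42 to 15.5, counting error only).

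The mean of Myot passed the 0.5 RPKM filter through the null hearts alone at both stages, and a gene that passes in this way has to differ between the groups. With no filter it was called as well (limma adjusted p = 8.71e-06 at E9.5 and 0.0344 at E10.5). The same gene was the one call of the set at E10.5. Myot was at 0.177, 0.101 and 0.0525 RPKM in flox hearts, from 2 to 7 reads, and at 2.42, 1.57 and 1.05 RPKM in null hearts, from 42 to 96 reads. Again no null library overlapped a flox library. The log2 change was 1.79 (SE 0.286, limma adjusted p = 0.0235), and the summed reads of 13 and 203 gave a 15.1-fold higher null level (95% exact interval 8.64 to 28.9, counting error only). The call ended, at adjusted p of 0.0616 to 0.0972, when flox replicate 1, 2 or 3 or null replicate 2 was left out, and the log2 change then stayed between 1.72 and 1.87. It also ended under quantile normalization (log2 change 1.499, limma adjusted p = 0.0515). With the minimum raised to a mean of 1 RPKM, Myot was not tested at this stage.

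Since myotilin is abundant in skeletal muscle, genes that mark skeletal muscle precursors were read in the same libraries. At E9.5 the 7 measured genes of that list (Pax3, Pax7, Myf5, Myf6, Myod1, Myog and Chrna1) reached at most 0.0708 RPKM, 48 of their 70 values were 0 and no value rested on more than 6 reads. Their summed level ran from 0.0486 to 0.0972 RPKM in flox and from 0.0476 to 0.172 RPKM in null hearts. At E10.5 the sum was highest in flox replicate 2, at 4.39 RPKM, where Myot was at 0.101 RPKM. Myog, a regulator of muscle differentiation, was at 1.81 RPKM in that library and at 0 in null replicate 3, where Myot was at 1.05 RPKM. In E10.5 null replicates 1, 2 and 3 the sum was 1.86, 0.448 and 0.113 RPKM. Myot ran in the same order there, at 2.42, 1.57 and 1.05 RPKM. In flox replicates 1, 2 and 3 the sum was 0.0765, 4.39 and 2.37 RPKM, with Myot at 0.177, 0.101 and 0.0525 RPKM. The list holds mainly precursor genes and regulators, and the cell source of Myot was not tested.

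**Figure D2:**
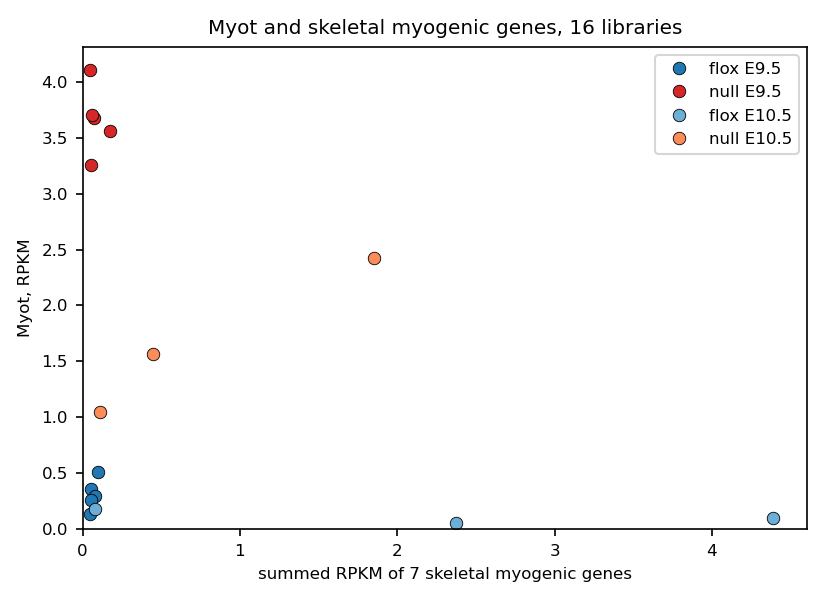
Myot in RPKM (vertical axis) against the summed RPKM of 7 skeletal myogenic genes (horizontal axis), 1 point per library for 16 libraries coloured by genotype and stage. The 5 E9.5 null libraries lie at the left edge with Myot between 3.26 and 4.11 RPKM. The library with the largest myogenic sum, 4.39 RPKM, is a flox library with Myot at 0.101 RPKM. The E10.5 null libraries stand in the same order on both axes.

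Myoz2 encodes calsarcin-1, a Z-disc protein of heart and slow muscle that binds alpha-actinin and calcineurin. It was at 6.90, 14.3, 5.77, 7.69 and 10.6 RPKM in E9.5 flox and 5.35, 10.3, 11, 7.74 and 11.9 RPKM in E9.5 null hearts. These ranges coincided, with a log2 difference of 0.05 and a wide interval from -0.51 to 0.61 (limma adjusted p = 0.914). At E10.5 the flox hearts held 26.4, 20.4 and 25.4 RPKM and the null hearts 15, 13.4 and 17.9 RPKM. All 3 null libraries were below all 3 flox libraries, with a log2 difference of -0.63 (SE 0.168) that did not pass the adjusted test (limma adjusted p = 0.0985), and of -0.74 without flox replicate 2.

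Nebl encodes nebulette, the cardiac member of the nebulin family, which runs along the thin filament from the Z-disc. Its E9.5 levels were 113, 100, 102, 105 and 110 RPKM in flox and 102, 77.5, 91.0, 85.5 and 85.5 RPKM in null hearts. Null replicate 1 reached into the flox range, and the other 4 null libraries lay below it. Nebl fell by 0.27 on the log2 scale (SE 0.0714, limma adjusted p = 0.0264), the smallest change of the called members. The call ended without flox replicate 1, flox replicate 5, null replicate 2 or null replicate 5, with adjusted p from 0.0521 to 0.0663. It was lost in 10 of 27 settings in all, among them a common median (limma adjusted p = 0.0571), sex in the fit (0.0943) and the epicardial level in the fit (0.0564). At E10.5 the levels were 99.4, 68.0 and 60.8 RPKM in flox and 58.6, 60.3 and 25.6 RPKM in null hearts, with null replicate 3 far below the other libraries. They did not overlap, yet the log2 difference of -0.72 (SE 0.338) did not pass (limma adjusted p = 0.242). It was -0.32 without null replicate 3 and -0.79 without flox replicate 2.

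Tcap encodes telethonin, the cap that joins the ends of titin molecules in the Z-disc. It showed the largest loss of the set at E9.5, with 35.6, 33.2, 34.6, 27.0 and 36.1 RPKM in flox and 19.3, 20.4, 19.3, 12.8 and 15.6 RPKM in null hearts. The highest null library was below the lowest flox library. Tcap fell by 0.92 on the log2 scale (SE 0.128, limma adjusted p = 0.00115), so the null level was 0.527 times that of flox on the log2(RPKM + 0.5) scale. At E10.5 the flox libraries were at 25, 15.6 and 26.2 RPKM and the null libraries at 11.4, 8.90 and 17.5 RPKM. Only flox replicate 2, the library with the low cardiomyocyte share, and null replicate 3 crossed. The E10.5 difference was -0.82 (SE 0.279, limma adjusted p = 0.149), and -1.05 without flox replicate 2 (limma adjusted p = 0.168).

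Csrp3 encodes muscle LIM protein, an adaptor linked to telethonin and alpha-actinin, and was the most abundant of the 10 genes per length in every group. The flox hearts at E9.5 held 487, 446, 455, 529 and 482 RPKM and the null hearts 386, 331, 326, 352 and 322 RPKM, with no overlap. Csrp3 fell by 0.48 on the log2 scale (SE 0.0685, limma adjusted p = 0.00130). At E10.5 the values were 494, 268 and 457 RPKM in flox and 379, 280 and 433 RPKM in null hearts. These overlapped, and the log2 difference of -0.13 (SE 0.276) did not pass (limma adjusted p = 0.798) and was -0.41 without flox replicate 2.

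Smpx encodes chisel, a small muscle protein found at the costameres and linked to stretch. It was at 164, 174, 126, 146 and 168 RPKM in E9.5 flox and 96.2, 96.8, 128, 97.5 and 130 RPKM in E9.5 null hearts. Flox replicate 3 lay under the highest null libraries, so the groups overlapped by that library. Smpx fell by 0.51 on the log2 scale (SE 0.118, limma adjusted p = 0.0148). At E10.5 the flox hearts held 318, 175 and 259 RPKM and the null hearts 115, 111 and 162 RPKM, with no overlap and a log2 difference of -0.93 (SE 0.252, limma adjusted p = 0.1002). Without flox replicate 2 the difference was -1.17 (limma adjusted p = 0.0870). The authors' deposited table lists Smpx at E10.5, with a log2 ratio of control over null of 0.82 and an adjusted p of 0.00647, whereas it did not pass in limma.

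Xirp1 encodes Xin, an actin-binding protein of the cell contacts that become intercalated discs, with links to the Z-disc. It was at 52.2, 46.0, 44.0, 51.7 and 52.8 RPKM in E9.5 flox and 39.0, 29.7, 35.8, 27.7 and 29.2 RPKM in E9.5 null hearts. The groups did not overlap, and Xirp1 fell by 0.61 on the log2 scale (SE 0.0986, limma adjusted p = 0.00256). At E10.5 the levels were 21.8, 15.4 and 22.9 RPKM in flox and 15.3, 18.4 and 15.9 RPKM in null hearts. These overlapped, with a log2 difference of -0.25 (SE 0.181, limma adjusted p = 0.421) that ran from -0.43 without flox replicate 2 to -0.15 without flox replicate 3.

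Des encodes desmin, the intermediate filament protein around the Z-disc. Its E9.5 levels of 252, 242, 237, 230 and 225 RPKM in flox and 228, 225, 227, 194 and 192 RPKM in null hearts overlapped. The log2 difference was -0.16 with an interval from -0.30 to -0.01, which did not pass the adjusted test (limma adjusted p = 0.127). At E10.5 the order turned, with 129, 72.6 and 155 RPKM in flox and 197, 157 and 199 RPKM in null hearts, so that every null library was above every flox library. That difference was 0.69 (SE 0.275, limma adjusted p = 0.192), and 0.37 without flox replicate 2 (limma adjusted p = 0.361). In the same libraries 6 smooth muscle genes had mean log2 levels of 5.03 to 5.57 in flox and 5.92 to 6.08 in null hearts, and took 0.275 ± 0.0779% and 0.408 ± 0.0235% of reads. None of the 6 was at 0 in any E10.5 library, 1 of them, Myh11, rose, and their part in the Des difference was not tested.

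**Figure D3:**
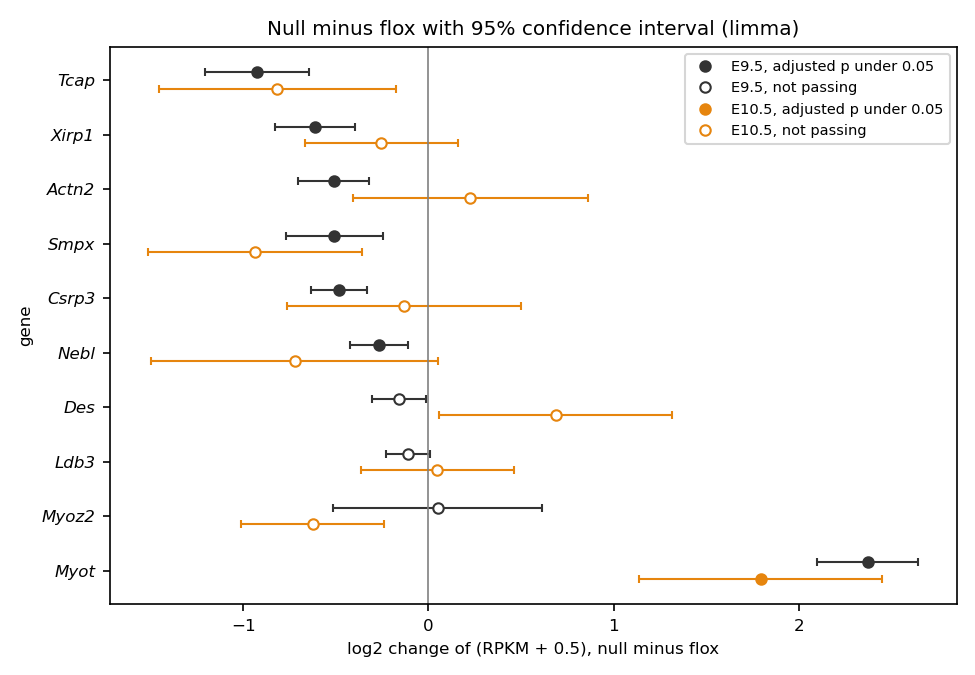
Log2 change of RPKM + 0.5, null minus flox (horizontal axis), of each Z-disc gene at E9.5 and E10.5, with the 95% confidence interval from limma and filled points where the adjusted p was under 0.05. The 6 genes called as lower at E9.5 have filled points and intervals left of 0, Myot lies right of 0 at both stages, and the E10.5 intervals are wider than those of E9.5 for 9 of the 10 genes.

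At E10.5, 1 of the 10 genes was called in limma, Myot as higher, against 2.07% of 14100 genes tested, 1.77% as higher and 0.305% as lower. Myot passed the filter through its null level alone, so its place in these counts was favoured by the filter. At an unadjusted p under 0.05 there were 5 members, 3 with a lower and 2 with a higher value, against 22.9% of all genes. Nebl, Smpx and Myoz2 had all null libraries below all flox libraries and Myot and Des had them above, whereas 17.4% of all genes lay below in this way, 13.9% above and 31.3% in either direction. The median log2 difference was -0.19 over the members and -0.03 over all genes. Actn2, Csrp3, Xirp1 and Tcap, whose libraries were separate at E9.5, overlapped at E10.5.

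Whether null against flox differed between the stages was tested by the interaction of genotype and stage over 16 libraries. None of the 10 genes passed in limma, against 4.04% of 13418 genes tested. At an unadjusted p under 0.05 there were 3 members, against 26.4% of all genes. Des had the largest positive difference between stages, 0.84 (SE 0.248, limma adjusted p = 0.0600), since its value was -0.16 at E9.5 and 0.69 at E10.5. Actn2 followed with 0.74 (SE 0.261, limma adjusted p = 0.0961), and Myot had -0.58 (SE 0.261, limma adjusted p = 0.174). The Myot value was -0.20 with a pseudocount of 0.1 and turned to 0.17 in voom on recovered reads, so it has no fixed direction. Without flox E10.5 replicate 2 the Des and Actn2 differences were 0.52 and 0.47. The stages were prepared from 200 ng and 300 ng of RNA and stand in separate tables, so levels were not tested between stages.

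The order of levels per length also differed between the groups. In E9.5 flox hearts it ran from Csrp3 at 479.9 ± 32.5 RPKM through Des, Actn2, Smpx, Nebl, Ldb3, Xirp1 and Tcap to Myoz2 at 9.04 ± 3.43 RPKM and Myot at 0.312 ± 0.137 RPKM (SD, n = 5). Only Des and Actn2 overlapped among neighbours in that order. In E9.5 null hearts the order of the genes was the same, and Actn2, Smpx, Nebl and Ldb3 overlapped from each to the next. At E10.5 Smpx was the second highest in flox hearts, at 250.6 ± 71.8 RPKM, separate from Actn2 at 133.8 ± 41.3 RPKM (n = 3). In E10.5 null hearts Smpx stood below Csrp3, Des and Actn2, at 129.1 ± 28.6 RPKM, and overlapped with Actn2 at 154.6 ± 42.4 RPKM.

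Levels were next set against the cardiomyocyte genes of the same library, as the log2 level of each member minus the mean log2 level of the 12 reference genes. At E9.5 Tcap, Xirp1 and Actn2 remained below flox in every null library on this scale, as did 1.34% of all genes. Their differences were -0.67, -0.35 and -0.25. The reference genes had a median log2 change of -0.21 at this stage, so subtracting them shifts other genes upward and lowers that share. Csrp3 differed by -0.23 and Smpx by -0.25 with overlapping libraries, and Nebl by -0.01. Myot was above in every null library by 2.63, as were 22.6% of all genes on this scale. At E10.5 Tcap, Smpx and Myoz2 were below flox in every null library, with differences of -0.84, -0.96 and -0.65, against 6.75% of all genes, and Myot and Des were above, by 1.77 and 0.66, against 7.0%. Scaling libraries to the same reference before the fit left 5 E9.5 calls, Tcap, Csrp3, Xirp1, Actn2 and Myot. It moved the median of all genes at E9.5 from -0.04 to 0.20, and split all calls into 4544 higher and 326 lower in place of 937 and 1405.

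**Figure D4:**
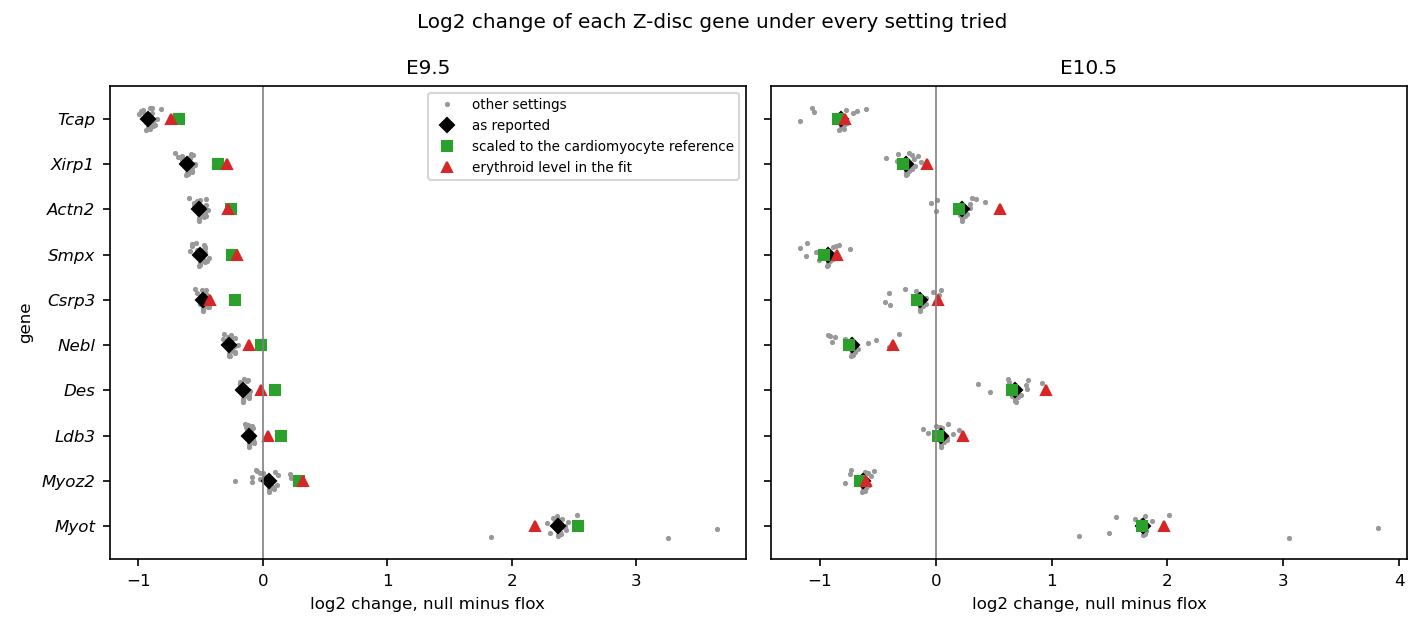
Log2 change, null minus flox (horizontal axis), of each Z-disc gene under every setting tried, at E9.5 (left) and E10.5 (right), with the reported value as a diamond, scaling to the cardiomyocyte reference as a square and the erythroid level as a term as a triangle. At E9.5 Nebl moves from -0.27 to -0.01 under the cardiomyocyte scaling and Tcap from -0.92 to -0.67, and the outlying Myot points are other pseudocounts and a fit on reads.

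Some members varied together among libraries of the same group. After the mean of each group was removed, the log2 levels of Csrp3 and Des had a Pearson r of 0.83 over 16 libraries, Actn2 and Des 0.81, and Tcap and Des 0.76. The lowest pair was Myot and Myoz2, at -0.42. Of the 45 pairs 12 had a negative r, and each of these 12 held Nebl, Myot or Myoz2. On the same scale Des had the closest relation to the cardiomyocyte reference, r = 0.91, and Nebl and Myot had almost none, at 0.03 and -0.03. With the mean log2 erythroid level, r was -0.77 for Ldb3, -0.75 for Xirp1, -0.71 for Actn2, -0.57 for Nebl and -0.56 for Des. For the other members it lay between -0.36 and -0.16. These correlations describe libraries that differ in cell makeup and share 1 depth scale. Next, 8608 other genes of at least 5 RPKM were set against the mean log2 level of the members, with the mean of each stage removed. Over the 16 libraries the most like were Apobec2 (r = 0.90), Palld (0.86), Tstd2 (0.85), Tmod1 (0.83) and Dusp27 (0.82). That mean weighs all 10 members alike and keeps the genotype differences. In it the rise of Myot, 2.37 at E9.5, offsets much of the fall of other members. Apobec2 encodes a muscle protein of the deaminase family, Palld encodes palladin, an actin-binding partner of alpha-actinin, and Tmod1 encodes a cap of thin filament pointed ends.

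Other genes of the Z-disc and its neighbourhood were counted from a list of 37, of which 32 were measured. This list, too, was chosen with earlier results of these data known. At E9.5, 8 fell, 1 rose and 23 did not pass in limma, where 10.3% of all genes were called lower and 6.87% higher, and the median log2 change was -0.12. The 8 were Fhl2, Synpo2, Trim54, Trim55, Fhl1, Trim63, Pdlim7 and Palld. Fhl2, a LIM domain protein that binds titin, went from 81.1 ± 7.69 RPKM in flox to 42.5 ± 7.49 in null hearts, a log2 change of -0.94 (SE 0.114, limma adjusted p = 0.000511). Trim54, Trim55 and Trim63, the MURF ubiquitin ligases of the sarcomere, fell by 0.67, 0.49 and 0.46. Nrap, a nebulin-related protein of assembling myofibrils, was the 1 that rose, from 1.93 ± 0.543 to 4.15 ± 0.656 RPKM (log2 change 0.95, SE 0.159, limma adjusted p = 0.00308).

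At E10.5 Nrap was again the single gene of that list to pass, at 2.23 ± 0.450 RPKM in flox and 4.94 ± 0.746 in null hearts (log2 change 1.001, SE 0.199, limma adjusted p = 0.0454). Of all genes 1.77% were called higher at this stage. The median of the list was 0.08. The interaction with stage passed for genes that include Pdlim7, at 0.91 (limma adjusted p = 0.0244), and Flnc, at 0.73 (limma adjusted p = 0.0295). Flnc encodes filamin C, an actin crosslinker that binds myotilin. For Pdlim7 the value was -0.36 at E9.5 and 0.55 at E10.5, the second of which did not pass (limma adjusted p = 0.146). By comparison the 12 cardiomyocyte reference genes had 4 lower and 0 higher calls at E9.5, with a median of -0.21, and 0 calls at E10.5 in limma, with 1 at an unadjusted p under 0.05.

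The authors' deposited tables list genes by their own DESeq2 test. At E9.5 the authors' deposited table holds 7 of the 10 members, the same 7 that passed in limma, and 12.6% of all 24509 genes (3094). Its log2 ratios of control over null were 0.83 for Tcap, 0.55 for Xirp1, 0.46 for Actn2, 0.44 for Csrp3 and Smpx, 0.22 for Nebl and -2.91 for Myot. At E10.5 the authors' deposited table holds Myot, at -2.19, and Smpx, at 0.82, and 5.54% of all 24509 genes (1357). Both shares include genes under the 0.5 RPKM filter, which left 13643 genes at E9.5 and 14100 at E10.5. All 10 members passed that filter, so these shares are not a like background for them.

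CHD4 binding at E10.0 was read as peaks called in each of the 3 libraries, 84271, 60749 and 50232 in number. Of the 84271 peaks of the first list, 22824 overlapped a peak in both other lists. Shared peaks are counted as peaks of the first list, so 1 wider peak of another list can be matched more than once. Within the gene or 5 kb of it, 8 of the 10 members held such a shared peak, against 72.4% of 13186 expressed genes with coordinates. The number of peaks set some members apart from genes of like length. Ldb3 held 19 shared peaks over chr14:34526699-34590314 and its flanks, and 99.7% of genes of 50 to 100 kb held fewer. Actn2 held 10 (99.0% held fewer) and Nebl 10 (96.3%), where the median gene of their length class held 1 and 2. The class of Nebl takes in all genes of 100000 bp or more, while Nebl itself spans 392277 bp. Xirp1 held 5 (97.1% of its class held fewer), Csrp3 4 (92.0%), Des 3 (82.0%), Smpx 2 (60.2%) and Tcap 1.

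Some of these peaks had their centre in another annotated gene, such as Opn4 beside Ldb3, Gm40667 inside Actn2 and Zdhhc13 beside Csrp3. The strongest peak at a member's start was that of Csrp3, at chr7:48847672-48849198, 1527 bp wide, with authors' scores of 203, 152 and 142 in the 3 lists. It covers the Csrp3 stretch printed above. The Actn2 peak at chr13:12340684-12341046 spans the start with scores of 157, 53 and 53, and 9 more shared peaks lay within the Actn2 gene. The Des peak at chr1:75359781-75360663 had scores of 93, 53 and 90, and the Ldb3 peak at chr14:34588522-34588925 had 47, 80 and 37 and included the CArG box. The single Tcap peak, at chr11:98383285-98383427, had its centre 455 bp outside the lower end of the gene.

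The 2 members without a shared peak were Myot and Myoz2. Myot had no peak in any of the 3 lists within the gene or 5 kb of it, whereas 94.7% of expressed genes had a peak in at least 1 list. Myot counts as expressed through its null level alone, and was at 0.312 RPKM in E9.5 flox hearts. Genes as low as this in control hearts were not compared, so that share is not a like background for Myot. Myoz2 had 1 peak in each list and none that all 3 shared. Of the members with shared peaks, Tcap, Xirp1, Actn2, Smpx, Csrp3 and Nebl fell at E9.5 and Ldb3 and Des did not pass, so the gene with the most peaks was not called in expression. The binding was measured in wild-type whole hearts, and the lists are not 3 independent samples.

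**Figure D5:**
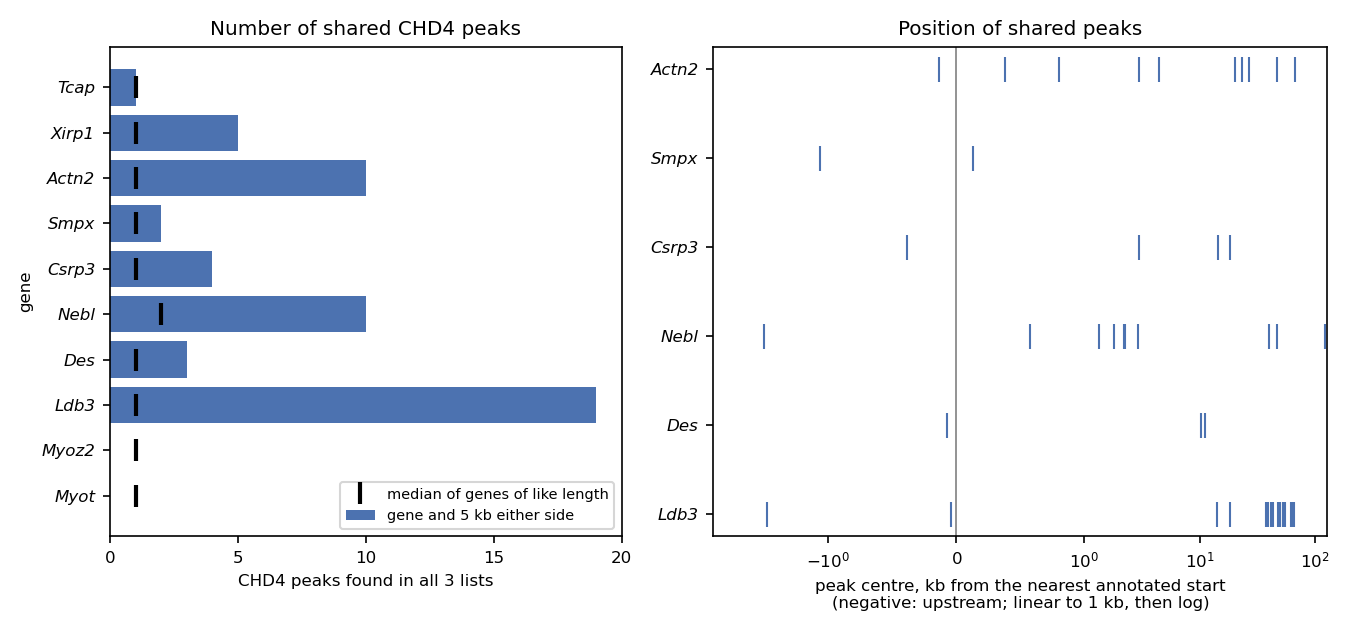
Left, number of CHD4 peaks found in all 3 lists within each Z-disc gene and 5 kb either side (bars, from 0). A black mark gives the median of genes in the same length class. Right, distance in kb of each shared peak's centre from the nearest annotated start, for the 6 genes with a start entry and a shared peak (linear to 1 kb, then log). Ldb3 has 19 peaks, Actn2 and Nebl 10 each, and Myot and Myoz2 none.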

How the data were processed

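Polyadenylated, stranded RNA libraries of embryonic hearts were sequenced (5 flox and 5 null at E9.5, 3 and 3 at E10.5), and CHD4 immunoprecipitates in 3 libraries at E10.0. The tools that the authors used were, per the submitters' processing notes, MACS2, DESeq2 1.6.3, HTSeq 0.6.2, bedtools 2.25.0, SAMtools 1.6 and Bowtie 1.2.0, with mm10 as build and no role stated. How strand was handled in counting is not given there. The RPKM values and the gene lengths in bp were deposited by the authors, 1 table per stage, and per the file headers each column is 1 library. Multiplied by length and depth, 100% of the values came within 0.01 of a whole read, which gives 14.6 to 20 M reads on genes for the E9.5 libraries and, for those of E10.5, 15 to 16.1 M. Interval limits on reads cover counting error only. The tables of comparisons deposited by the authors give log2 ratios of control over null with adjusted p-values, from DESeq2 by file name, and their mean level and test score were not used. Peak scores were deposited by the authors per library as whole numbers, with no scale stated, and serve only to describe peaks.

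Genes that averaged 0.5 RPKM or more at a stage were tested on log2(RPKM + 0.5) with limma 3.58.1 (trend, two-sided) in R 4.3.3, each stage alone, with Benjamini-Hochberg adjustment over all genes tested and a call at an adjusted p under 0.05. All 10 members passed the filter at both stages, Myot through its null level alone. The interaction of genotype and stage was fitted over 16 libraries. The procedure was tested on simulated data. Peaks of the first list that shared at least 1 base with a peak in each other list were assigned to a gene and 5 kb either side. RefSeq coordinates (GRCm38.p6) matched 96.7% of tested genes. All 10 members are described, with the called genes of the wider Z-disc list, except 1 that is not reported here, and the 5 genes of most like pattern. The members and lists were chosen with earlier results of these data known. Overlapping antisense genes cannot be separated. The 2 input libraries were not analysed here. Alternatives covered the pseudocount, filter, scaling, test, covariates, left-out libraries and peak rules.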

Additional observations from a re-analysis of the deposited data

How the results depend on the processing

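Of the 7 E9.5 calls among the Z-disc genes, 1 was left with the erythroid level in the fit (Myot) and 3 with all 16 libraries in 1 fit (Tcap, Xirp1, Myot), and leaving out each library gave 6 to 7. With the erythroid level in the fit Tcap was -0.74 (limma adjusted p = 0.261), Csrp3 -0.43 (0.229), Xirp1 -0.29 (0.527), Actn2 -0.28 (0.538), Smpx -0.21 (0.828) and Nebl -0.11 (0.864). The mean log2 erythroid level was separate between the E9.5 genotypes only by a narrow margin, and the SEs of these genes were larger in that fit. The single E10.5 call became 0 with a minimum mean of 1 RPKM, with sex, with the erythroid level and with the epicardial level in the fit, 2 with cardiomyocyte scaling, 4 with arrayWeights and 5 with all 16 libraries in 1 fit (Tcap, Myot, Nebl, Des, Smpx), and leaving out each library gave 0 to 1. With quantile normalization the 1 call was Smpx (limma adjusted p = 0.0458) in place of Myot (0.0515). The count of 0 for the difference between stages became 1 (Des) with quantile normalization and with rescaling without erythroid and abundant genes, and 0 to 2 with each library left out. Over the settings tried, calls among all genes ran from 73 to 4870 at E9.5, from 62 to 3096 at E10.5 and from 0 to 1796 for the interaction, against 2342, 292 and 542. A common median of tested genes split the E9.5 calls into 1134 higher and 1027 lower. The number of members with a CHD4 peak stayed between 7 and 9 over 5 peak rules. The cause of each change was not tested.

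Whether the replicate numbers pair the samples was not settled, and the main fit did not use them. Same-numbered flox and null libraries had correlations from -0.16 to 0.53 (E9.5) and from 0.020 to 0.032 (E10.5). Of these, 3 of 5 and 1 of 3 correlated best with their own number. With the replicate block the calls were 8 at E9.5 (Des added), 1 at E10.5 and 2 for the difference between stages (Actn2, Des). Among all genes at E9.5 the block gave 3698 calls in place of 2342.

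No called member reversed in any setting. Among the 23 reversed values of members that were not called, at E9.5 Ldb3 was 0.15 and Des 0.10 with cardiomyocyte scaling, Ldb3 was 0.041 with the erythroid level in the fit, and Myoz2 was -0.087 with sex and -0.22 with the epicardial level in the fit and -0.057 without the 3 libraries low in epicardial genes. At E10.5 Csrp3 was 0.023 with the erythroid level and Ldb3 -0.066 with the epicardial level in the fit. For the difference between stages, Tcap was -0.17 with cardiomyocyte scaling and -0.26 with arrayWeights, Ldb3 was -0.12 with cardiomyocyte scaling, and Myot was 0.17 in voom on recovered reads. With each library left out in turn, values that changed sign ranged from -0.085 to 0.22 for Myoz2 at E9.5, from -0.41 to 0.045 for Csrp3, -0.11 to 0.20 for Ldb3 and -0.042 to 0.42 for Actn2 at E10.5, and from -0.15 to 0.32 for Tcap in the difference between stages. The log2 change of Myot depended on the pseudocount, at 3.25 with 0.1 and 1.83 with 1 at E9.5, against 3.05 and 1.24 at the later stage, and was 3.65 and 3.82 in voom. Depth limits Myot in flox hearts, at 2 to 22 reads per library.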
